A study of Homo sapiens with 12 samples.

Results

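The RNAs described here are 9 small, folded noncoding RNAs that work as parts of stable ribonucleoproteins: RMRP, RPPH1, RN7SK, RN7SL1, RN7SL2, TERC and the vault RNAs VTRNA1-1, VTRNA1-2 and VTRNA1-3. HEK293T, a widely used line derived from human embryonic kidney, was the only cell source. The assay, protein interaction profile sequencing, maps the stretches of RNA that bound protein shields from a ribonuclease. All cells carried the same treatment, cross-linking with formaldehyde, and no genotype or treatment differed between groups. Of the 12 libraries, 3 footprint libraries were digested with an ssRNase that cuts unpaired RNA (RNase ONE) and 3 with a dsRNase that cuts paired RNA (RNase V1). Each has a digestion control in which SDS and proteinase K removed protein before the nuclease was added. The authors compared each footprint with the control of its nuclease and replicate number, which gave 6 lists of protected sites, 3 per nuclease. A site in these lists is therefore RNA that resisted the nuclease better with protein than without it.

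Members were chosen by position: every site that overlapped 1 of 7 loci on the strand of the RNA by at least 1 nt, in hg19, the build of the lists. Of 513381 sites in the 6 lists, 84 did so, 22, 15 and 15 in the ssRNase lists 1, 2 and 3 and 7, 13 and 12 in the dsRNase lists. The loci were RMRP (chr9:35657748-35658015, minus strand, 268 nt), RPPH1 (chr14:20811200-20811850, minus, 651 nt), RN7SK (chr6:52860418-52860749, plus, 332 nt), RN7SL1 (chr14:50053297-50053596, plus, 300 nt), RN7SL2 (chr14:50329271-50329567, minus, 297 nt), TERC (chr3:169482398-169482848, minus, 451 nt) and a window over the 3 vault genes (chr5:140090800-140106000, plus, 15201 nt). The named genes all encode noncoding RNAs, with neither coding sequence nor UTRs. The RPPH1 locus and the vault window are longer than their RNAs, and what else lies in them was not checked. The lists hold no read counts, so read depth is unknown. The ssRNase lists held 57481 to 209922 sites and the dsRNase lists 21561 to 28413. The labels do not state whether replicates are separate cultures, and a p-value here covers only list-to-list spread, which may be technical.

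As background, RMRP and RPPH1 are the core RNAs of RNase MRP and RNase P, related enzymes that share most of their proteins and process ribosomal RNA precursors and transfer RNA precursors. RN7SL1 and RN7SL2 encode the RNA of the signal recognition particle, which steers ribosomes that make secreted and membrane proteins to the endoplasmic reticulum. Its ends fold into the Alu domain, which slows translation, and its middle into the S domain, which recognises the signal peptide. RN7SK holds the transcription elongation factor P-TEFb in an inactive complex with HEXIM1, and its 3′ end is bound by LARP7. TERC carries the template from which telomerase copies telomere repeats in its 5′ part, and an H/ACA domain bound by dyskerin in its 3′ part. Vault RNAs belong to the large cytoplasmic vault particle.

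The sequences below are the RNAs whose values the results turn on, written 5′ to 3′ as DNA letters from the GENCODE release 29 transcripts (build GRCh38). No hg19 sequence was used, so sites are given by position in the locus and not placed on these letters. RMRP is shown whole because the nucleases parted along its length, and capitals mark its 5′ part, the first of 3 parts of near equal length (89, 90 and 89 nt).
RMRP: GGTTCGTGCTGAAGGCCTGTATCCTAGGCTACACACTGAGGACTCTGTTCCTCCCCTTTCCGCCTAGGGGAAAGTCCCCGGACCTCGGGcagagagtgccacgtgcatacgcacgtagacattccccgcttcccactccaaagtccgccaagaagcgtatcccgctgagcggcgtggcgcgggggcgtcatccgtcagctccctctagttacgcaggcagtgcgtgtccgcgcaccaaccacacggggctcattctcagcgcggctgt
The first 111 bases of RN7SK are shown because ssRNase and dsRNase differed most there, and capitals mark GATC, the letters of its HEXIM1-binding motif.
RN7SK: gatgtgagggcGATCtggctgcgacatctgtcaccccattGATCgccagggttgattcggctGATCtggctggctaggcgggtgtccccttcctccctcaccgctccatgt
GATC occurred 3 times in this stretch. Of 12395 GENCODE transcripts of 250 to 400 nt, 0.904% had 3 or more in their first 111 bases. These transcripts include RN7SK itself, and its pseudogene copies were not taken out, so the share is not a rate among unrelated RNAs. The first 150 bases of TERC are shown because every ssRNase list had a site in the first of 3 equal parts of the locus, and capitals mark CTAACCCTA, letters of the telomere template.
TERC: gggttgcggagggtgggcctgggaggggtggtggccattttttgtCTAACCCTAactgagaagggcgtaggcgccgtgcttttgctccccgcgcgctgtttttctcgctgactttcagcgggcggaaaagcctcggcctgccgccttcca
These letters occurred once, at positions 46 to 54, and in 0.06% of 64626 GENCODE transcripts of 400 to 700 nt, TERC among them. The capitals do not mark a protected stretch. In positions of the locus, the ssRNase sites in this part were at bases 47 to 86 and 102 to 146 in list 1. They were at bases 96 to 138 in list 2 and 106 to 140 in list 3. Both motifs were searched on the strand of the RNA alone.

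RMRP, RPPH1, RN7SK, RN7SL1, RN7SL2 and TERC each had a site in all 6 lists, 6 of 7 loci, and the vault window did not. Of 264639 stranded 300 nt tiles of the genome with a site in at least 1 list, 1.08% had one in all 6. The loci differ from the tiles in length (268 to 651 nt without the vault window), and the tiles are placed without regard to genes. All 6726 protected bases, summed over loci and lists, lay on the strand of the RNA, and no list had a protected base on the opposite strand of any locus. Summed over the 7 loci, the ssRNase lists held 1273, 1079 and 1120 protected bases and the dsRNase lists 1020, 1119 and 1115. These totals overlap between nucleases, although the ssRNase lists as a whole held 2915002 to 10193603 site bases and the dsRNase lists 798935 to 979087.

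The nucleases parted by RNA. RMRP and RPPH1 had more protected bases in every dsRNase list than in any ssRNase list, and RN7SK, RN7SL1 and RN7SL2 the reverse. Of 7 loci, 2 were thus higher with dsRNase in all lists, against 0.404% of tiles, and 3 higher with ssRNase, against 14.2% of tiles. Counted as a share of each list, 5 loci were higher with dsRNase, against 2.12% of tiles, and 0 with ssRNase, against 10.9% of tiles. In protected bases, 4.71% of the 2869 tiles with a site in all 6 lists were higher with dsRNase and 38.9% higher with ssRNase. The ssRNase count of 3 among 6 loci with a site in all lists is therefore near its background. At each of the 5 loci that parted in protected bases the two-sided exact permutation p was 0.1, the smallest that 3 against 3 lists allow. It was 0.683 after Benjamini-Hochberg adjustment over all tiles and loci, so that no difference could pass 0.05.

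**Figure D1:**
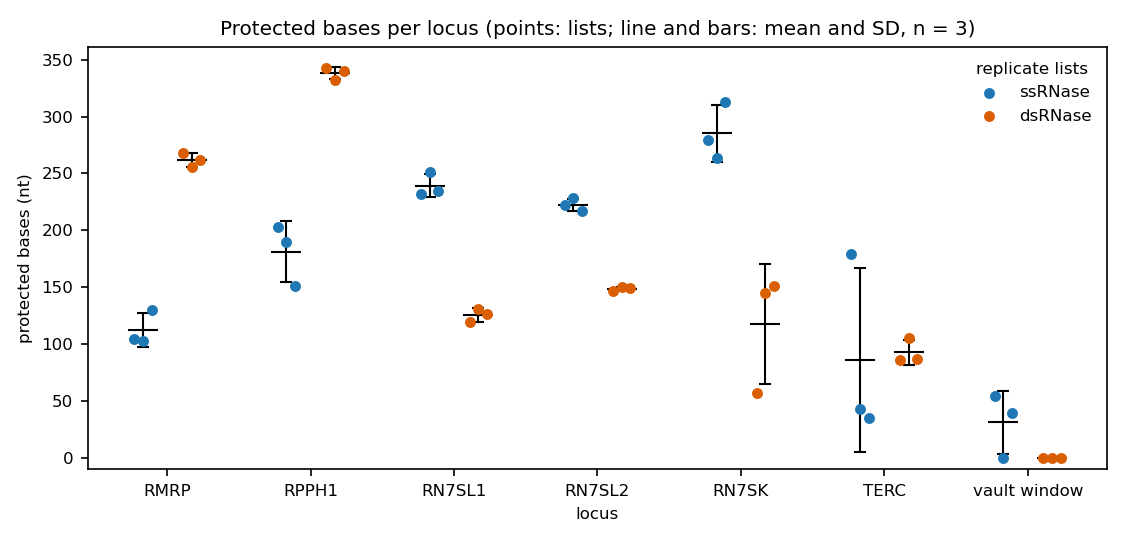
Protected bases (nt) at each locus, with a point for each replicate list (blue, ssRNase; orange, dsRNase) and black lines for the mean and SD of 3 lists. The dsRNase points of RMRP (256 to 268) and RPPH1 (332 to 343) sit above the ssRNase points, and the order is the opposite at RN7SL1, RN7SL2 and RN7SK.

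RMRP was covered along nearly its whole length with dsRNase and only in its 5′ and middle parts with ssRNase. The dsRNase lists protected 268, 256 and 262 of its 268 bases and the ssRNase lists 104, 103 and 130. The groups did not overlap, and the lowest dsRNase list was well above the highest ssRNase list. The means were 97.8% ± 2.24 of the locus with dsRNase and 41.9% ± 5.71 with ssRNase (SD, n = 3 lists each; two-sided exact permutation p = 0.1). In dsRNase list 1 a single site of 273 nt ran from 35657745 to 35658017, past both limits of the locus, and was the 8th longest of 23925 sites in that list. In lists 2 and 3 the same stretch was broken into 3 and 2 sites, and both lists placed a site end at 35657883.

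The 3′ part of RMRP, its last 89 nt, set the nucleases apart. It had no protected base in any ssRNase list, and 89, 86 and 89 of its 89 bases were protected in the dsRNase lists. In the 5′ part all 89 bases were protected in every dsRNase list and 67, 69 and 86 in the ssRNase lists. The leading ssRNase site began 2, 7 and 3 nt before the 5′ limit and ended at the same position, 35657972, base 44 of the locus, in all 3 lists. Bases 1 to 44, 65 to 85 and 94 to 123 were protected in all 6 lists, 95 bases in all. A run of 86 bases, from base 183 to 268, was protected in every dsRNase list and in no ssRNase list.

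RPPH1 gave the same order. Its sites reached from 20811228 to 20811573, a stretch of 346 nt inside the longer locus, and the RefSeq gene is 341 nt long. No list had a site in the remaining 277 nt on the 5′ side and 28 nt on the 3′ side of the locus. Within the stretch, the dsRNase lists protected 99.1%, 96.0% and 98.3% of the bases and the ssRNase lists 58.7%, 54.9% and 43.6%. Over the whole locus the means were 338 ± 5.69 protected bases for dsRNase and 181 ± 27.1 for ssRNase (SD, n = 3 lists each; two-sided exact permutation p = 0.1). The dsRNase values were nearly equal among themselves and lay above all ssRNase values.

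With dsRNase, RPPH1 was divided into long adjoining sites. A site end at 20811368 recurred in all 3 lists, and the site on its 3′ side was 140, 140 and 141 nt long. The rest was 1 site of 203 nt in list 1 and 2 sites of 96 to 102 nt in lists 2 and 3. With ssRNase the sites were short, 12 to 71 nt with a median of 41.0 nt, and each list had 4. When the stretch is cut into 3 parts, a choice made after seeing the sites, the ssRNase lists protected 44, 29 and 43 of the 116 bases of the middle part and the dsRNase lists 115, 113 and 114. The longest run in every dsRNase list and in no ssRNase list, 61 bases from 20811389 to 20811449, lay there. RPPH1 thus differed from RMRP in where ssRNase sites were found: RPPH1 had them in every part and RMRP had none in its 3′ part. The 2 RNAs are 45.9% identical in a global alignment of 342 columns with 83 gaps. No value for unrelated RNAs was computed to set beside it.

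**Figure D2:**
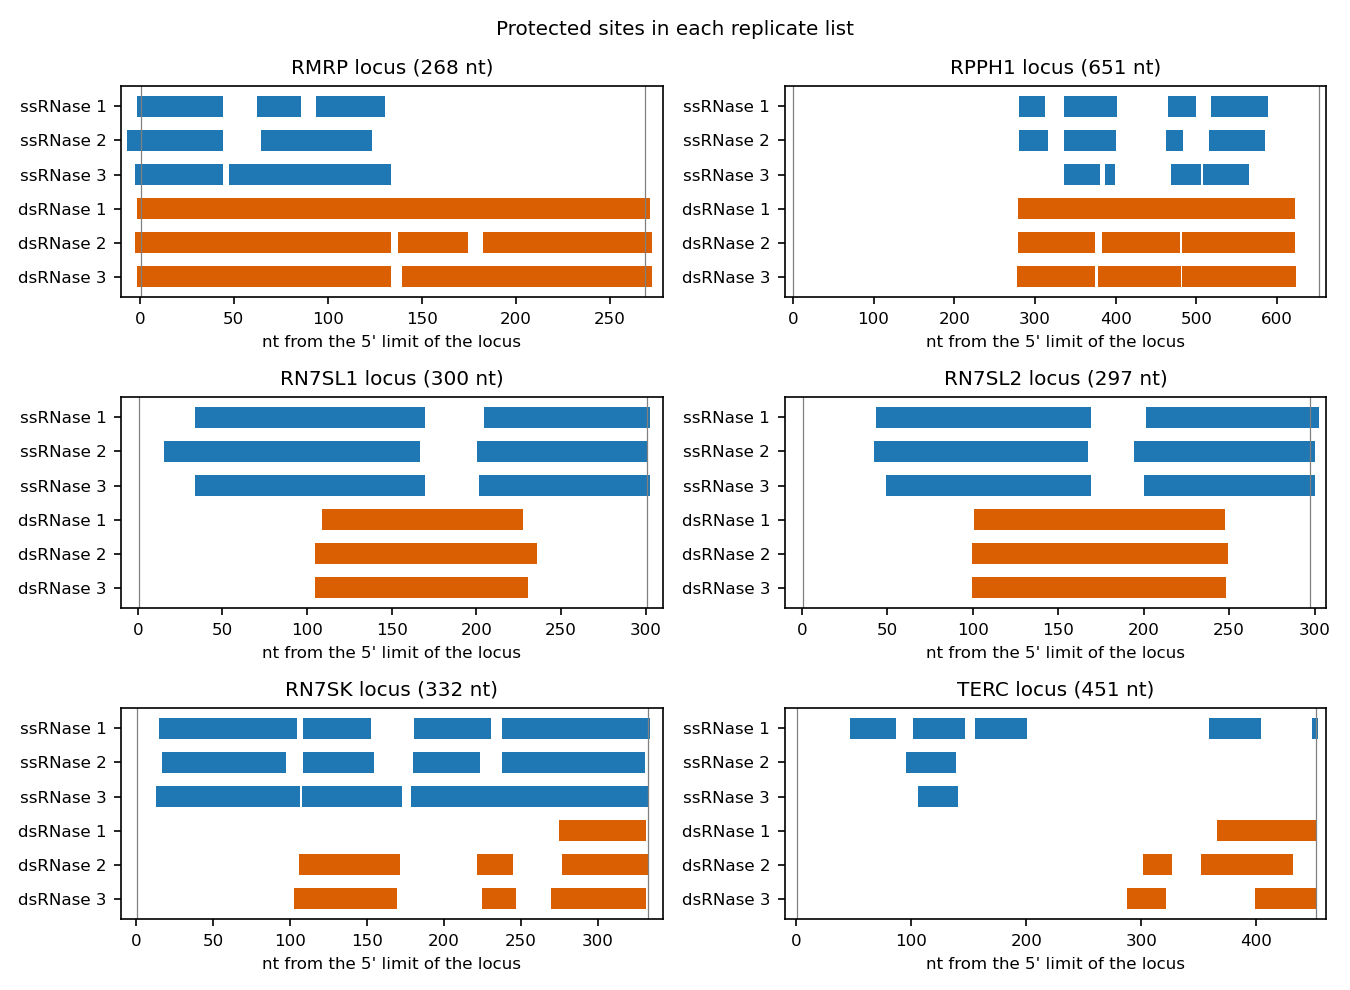
Each bar is a protected site in 1 replicate list (blue, ssRNase; orange, dsRNase), drawn in nt from the 5′ limit of the locus, with grey lines at the limits. The orange bars fill RMRP and the occupied stretch of RPPH1, lie in the middle of RN7SL1 and RN7SL2, and in all 3 lists at the 3′ end of RN7SK, with further sites in its middle in lists 2 and 3, and the blue bars leave a gap in the middle of both RN7SL loci.

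The signal recognition particle RNAs showed a layout of their own. With dsRNase each list had 1 site in the middle of RN7SL1, from base 105 or 109 to base 227 to 235 of the locus, and 1 in the middle of RN7SL2, from base 100 or 101 to base 247 to 249. With ssRNase each list had 2 sites, which left a gap in the middle of the RNA. At RN7SL1 the first ended at base 166 to 169 and the second began at base 201 to 205. At RN7SL2 the first ended at base 167 to 169 and the second began at base 195 to 202. The gap lay inside the dsRNase site at both loci. Bases 170 to 200 of RN7SL1 and 170 to 194 of RN7SL2 were protected in every dsRNase list and in no ssRNase list.

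RN7SL1 held 232, 251 and 235 protected bases in the ssRNase lists and 119, 131 and 126 in the dsRNase lists. At RN7SL2 the ssRNase lists held 222, 228 and 217 bases and the dsRNase lists 147, 150 and 149. The groups did not overlap at either locus. As a mean, 79.8% ± 3.4 of RN7SL1 was protected with ssRNase and 41.8% ± 2.01 with dsRNase, and 74.9% ± 1.85 and 50.1% ± 0.51 of RN7SL2 (SD, n = 3 lists each; two-sided exact permutation p = 0.1 for each locus). The 5′ part had no protected base in any dsRNase list at either locus. There the ssRNase lists protected 67, 85 and 67 of 100 bases of RN7SL1 and 56, 57 and 50 of 99 bases of RN7SL2. Of the 3′ part, 100 nt, the ssRNase lists protected 96 to 100 bases of RN7SL1 and the dsRNase lists 27 to 35.

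The layout of one locus is not independent evidence for the other. Their RNAs are near copies, 98.3% identical in a global alignment of the GENCODE transcripts, so that many reads could come from either, and the sources used here do not say how such multiply mapping reads were handled. GENCODE also names 677 RN7SL pseudogenes and 293 RN7SK pseudogenes, against 1 for RMRP and 2 for RPPH1. The part of such copies in the sites was not tested.

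RN7SK, the inhibitor RNA of P-TEFb, was protected along nearly its whole length with ssRNase. The ssRNase lists held 279, 264 and 313 protected bases of 332 and the dsRNase lists 57, 145 and 151. Every ssRNase list was above every dsRNase list, and dsRNase list 1 was far below the other 2. The means were 85.9% ± 7.56 of the locus with ssRNase and 35.4% ± 15.9 with dsRNase (SD, n = 3 lists each; two-sided exact permutation p = 0.1). The ssRNase lists shared 4 blocks, at bases 17 to 97, 109 to 152, 181 to 223 and 238 to 330.

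The 5′ part of RN7SK had 93, 84 and 98 of 111 bases protected in the ssRNase lists and 0, 6 and 9 in the dsRNase lists. At the 3′ end the nucleases met. Bases 277 to 330, 54 in all, were protected in all 6 lists, and this was the only stretch protected in every dsRNase list apart from base 331. The dsRNase lists 2 and 3 also had sites at bases 103 to 171 and 222 to 246, and list 1 had none there.

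These comparisons are in protected bases, and a share of the list gives another order. Per 1000000 site bases of the list, RN7SK had 52.2 ± 33.7 protected bases for ssRNase and 135 ± 60.9 for dsRNase (SD, n = 3 lists each; two-sided exact permutation p = 0.2). RN7SL1 had 46.0 ± 34.9 and 145 ± 11.98, and RN7SL2 42.3 ± 31.2 and 173 ± 17.4 (SD, n = 3 lists each; two-sided exact permutation p = 0.1 for each). On this scale all 6 single-RNA loci had a higher mean with dsRNase. At 5 of the 7 loci (RMRP, RPPH1, RN7SL1, RN7SL2 and TERC) every dsRNase list was above every ssRNase list, against 2.12% of tiles, and at none was the order the reverse, against 10.9% of tiles. Among the tiles with a site in all 6 lists 76.9% were higher with dsRNase on this scale and 0.105% higher with ssRNase, so that 5 of the 6 loci with a site in all lists is near its background. The dsRNase lists are shorter as a whole, as given above, and a locus cannot hold more protected bases than its length.

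**Figure D3:**
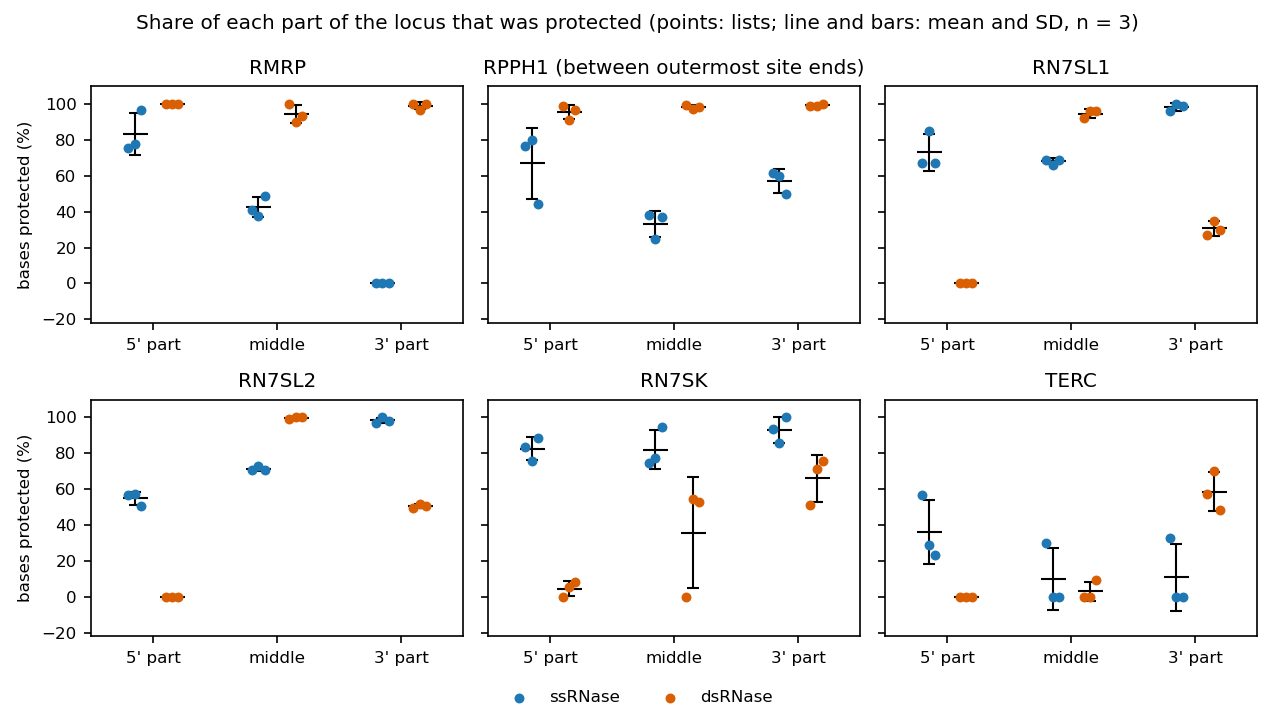
Percent of the bases of the 5′, middle and 3′ part of each locus that was protected, with a point for each replicate list (blue, ssRNase; orange, dsRNase) and black lines for the mean and SD of 3 lists; for RPPH1 the parts are of the stretch between the outermost site ends. The blue points of RMRP are at 0 in the 3′ part, and the orange points of RN7SL1, RN7SL2 and TERC are at 0 in the 5′ part.

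At TERC, the telomerase RNA, the bases common to all 3 lists lay in the 5′ part with ssRNase and the 3′ part with dsRNase. Neither stretch reached an end of the locus, and bases 1 to 46 had no site in any list. Of the ssRNase lists, list 1 alone also had sites in the middle and 3′ parts. In the 5′ part the ssRNase lists held 85, 43 and 35 protected bases of 150 and the dsRNase lists none. In the 3′ part the dsRNase lists held 86, 105 and 73 of 150 bases and the ssRNase lists 49, 0 and 0. The groups did not overlap in either part, and how often this occurs in such parts elsewhere was not computed. Bases 106 to 138 were protected in every ssRNase list and in no dsRNase list, and bases 405 to 431 in every dsRNase list and in no ssRNase list. No base of TERC was protected in all 6 lists.

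The total of protected bases over TERC overlapped between the nucleases. The ssRNase lists held 179, 43 and 35 protected bases and the dsRNase lists 86, 105 and 87. The means were 85.7 ± 80.9 and 92.7 ± 10.7 (SD, n = 3 lists each; two-sided exact permutation p = 1.0). The highest ssRNase value was in list 1, the longest list, with 5 sites against 1 in each of the others. Without it the ssRNase mean was 39.0 bases. When only the 21561 best-scoring sites of each list were kept, no ssRNase site at TERC was left, while the dsRNase mean stayed at 92.7 bases. This number is the whole of dsRNase list 3, and the ssRNase lists held 57481 to 209922 sites. The cut thus removed a larger share of every ssRNase list, and its contrast cannot be separated from list length. With the better-scoring 50% of each list, the means were 57.0 bases with ssRNase and 81.3 with dsRNase (two-sided exact permutation p = 0.6). Per 1000000 site bases the ssRNase lists had 17.6, 14.8 and 4.32 protected bases at TERC and the dsRNase lists 104.4, 107 and 109, which do not overlap (two-sided exact permutation p = 0.1).

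The vault window held few sites. There were 2 sites in ssRNase list 1, none in ssRNase list 2, 1 in ssRNase list 3 and none in any dsRNase list. A pair of sites, at 140090902 to 140090935 in list 1 and 140090907 to 140090945 in list 3, overlapped near the 5′ limit of the window. The other site, 20 nt from 140105910 to 140105929, was in list 1 alone. The window held 54, 0 and 39 protected bases with ssRNase (two-sided exact permutation p = 0.4). VTRNA1-1, VTRNA1-2 and VTRNA1-3 follow each other in this order on the plus strand, and since the annotation used here is of another build, the sites were not assigned to one of them. The 14964 nt between the site groups, in which no list had a site, lie across the middle of the window. Per base the vault window therefore cannot be set beside the single-RNA loci. VTRNA1-1 was 80.8% identical to VTRNA1-2 and 79.8% to VTRNA1-3, and the latter pair 86.5%.

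Base by base, the sites of the nucleases coincided over part of these RNAs. Over the 6 single-RNA loci 940 bases were protected in all 3 dsRNase lists, and 453 of these (48.2%) were protected in all 3 ssRNase lists as well. Elsewhere in the genome it was 25.8% of such bases. A further 326 (34.7%) were in no ssRNase list, against 31.6% elsewhere. In the other direction 951 bases were protected in all 3 ssRNase lists. The same 453 made up 47.6% of them, against 2.43% elsewhere, and 413 (43.4%) were in no dsRNase list, against 81.1% elsewhere. The values elsewhere are not a like background. Outside the loci 1790927 bases were in all 3 ssRNase lists and only 168974 in all 3 dsRNase lists, which keeps the shared part low. Those bases were also not limited to places with a site in all 6 lists. Neighbouring bases share sites, so these shares are descriptions and carry no test. The overlap that the cover of each nuclease alone would give was not computed. The shares therefore do not show that the nucleases marked the same bases.

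The RNAs differed widely in this measure, which depends on how much of each RNA the other nuclease covered. Bases in all 3 dsRNase lists made up 254 of 268 at RMRP and 332 of the 346 nt stretch at RPPH1. High shares of the ssRNase bases there were thus given in advance. At RN7SK the bases in all 3 ssRNase lists made up 261 of 332. All 95 bases of RMRP protected in every ssRNase list were protected in every dsRNase list too, and so were 92.4% of the 119 such bases of RPPH1. At RN7SL2 it was 52.8% of 214 bases, at RN7SL1 35.4% of 229, at RN7SK 20.7% of 261 and at TERC none of 33. Read from dsRNase, the order was another: 98.2% of the 55 bases of RN7SK in every dsRNase list were in every ssRNase list, 76.9% of 147 at RN7SL2, 68.1% of 119 at RN7SL1, 37.4% of 254 at RMRP, 33.1% of 332 at RPPH1 and none of 33 at TERC. List by list, 100% of the ssRNase bases of RMRP and 93.7% to 99.5% of those of RPPH1 lay in each dsRNase list. At RN7SK 75.2% to 100% of the dsRNase bases lay in each ssRNase list, and the 55 bases above are limited by dsRNase list 1, which held 57.

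**Figure D4:**
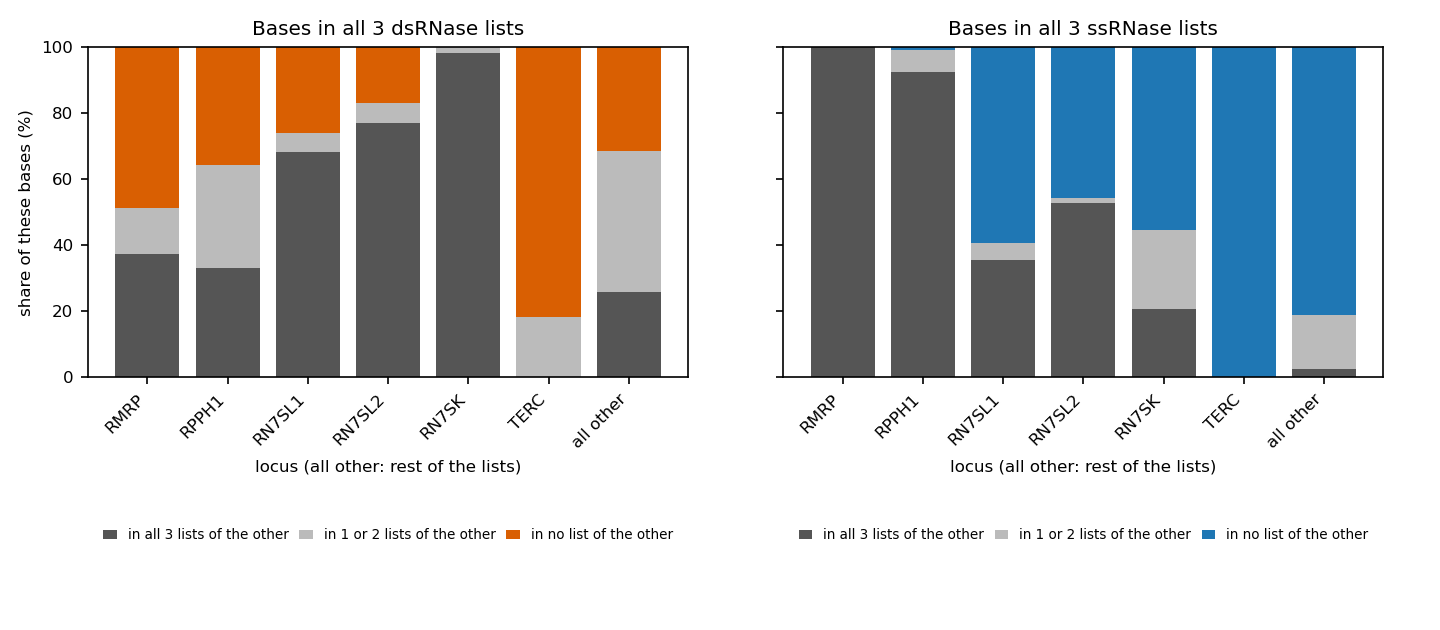
Bases protected in all 3 dsRNase lists (left) or all 3 ssRNase lists (right), split by whether the lists of the other nuclease protected them (percent of bases; dark, all 3 lists; light, 1 or 2; colour, none); the last bar is all bases outside the loci. On the right the dark part fills RMRP (100%) and most of RPPH1 (92.4%) and is 2.43% in the last bar. RMRP and the occupied stretch of RPPH1 were covered nearly whole with dsRNase. Outside the loci far fewer bases were in all 3 dsRNase lists than in all 3 ssRNase lists.

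Replicate lists of one nuclease placed their sites alike at most loci. For pairs of dsRNase lists, 95.5% to 100% of the protected bases of one list at RMRP lay in the other, 96.8% to 100% at RPPH1 and 98.0% to 100% at RN7SL2. At RN7SK the range was 37.8% to 100%, with dsRNase list 1 the shortest, and at TERC 50.5% to 76.7%. For pairs of ssRNase lists it was 94.3% to 99.5% at RN7SL2, 91.2% to 100% at RN7SL1, 84.4% to 100% at RN7SK, 79.2% to 100% at RMRP and 63.7% to 95.8% at RPPH1. At TERC it was 19.6% to 100%. Pairs share lists, and these shares carry no test. Exact ends recurred rarely: 3 of 104 site ends at the loci were at the same position in all 3 ssRNase lists (2.88%, against 1.57% of all others), and 3 of 64 in all 3 dsRNase lists (4.69%, against 1.33%). Each count of 3 is a single position counted once per list, 35657972 at RMRP with ssRNase and 20811368 at RPPH1 with dsRNase. The distance from the other ends therefore rests on a single position for each nuclease.

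The score is the authors' value and serves here to rank sites within a list, since the sources used here do not give its scale. By this score RMRP stood highest. Its best site ranked 43rd of 209922, 28th of 57481 and 47th of 172079 in the ssRNase lists, and 15th of 23925, 24th of 28413 and 21st of 21561 in the dsRNase lists. In each ssRNase list this was the site that ended at base 44. The best RN7SL2 site ranked 414th, 161st and 170th with ssRNase and 60th, 67th and 70th with dsRNase. That of RN7SL1 ranked 245th, 141st and 100th with ssRNase, above RN7SL2 in every list, and 194th, 184th and 216th with dsRNase. At RN7SK the ranks were 2562nd, 2743rd and 607th with ssRNase and 1570th, 205th and 243rd with dsRNase. The best RPPH1 site ranked 49th, 59th and 41st with dsRNase and 5833rd, 704th and 2543rd with ssRNase. TERC ranked low, at 71579th, 28123rd and 25797th with ssRNase and 2779th, 1569th and 2915th with dsRNase.

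Of the 32 dsRNase sites at the loci, 21 were among the top 1% of their list by score, and 16 of the 52 ssRNase sites. Pooled over the loci, the median site length was 96.5 nt with dsRNase and 54.0 nt with ssRNase. The list medians were 33.0 to 34.0 nt and 42.0 to 44.0 nt. For dsRNase the locus medians ran from 53.0 nt at TERC to 149.0 nt at RN7SL2. For ssRNase they were 118.5 nt at RN7SL1, 113.0 at RN7SL2 and 81.0 at RN7SK. The other ssRNase medians were near or below the list medians: 47.0 nt at RMRP, 43.0 at TERC, 41.0 at RPPH1 and 34.0 in the vault window. The shortest was a site of 5 nt at TERC with ssRNase, and with dsRNase one of 22 nt at RN7SK.

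G and C made up 52.5% of VTRNA1-1, 55.1% of VTRNA1-2, 60.7% of VTRNA1-3, 58.2% of RN7SK, 62.7% to 62.9% of the RN7SL RNAs, 63.1% of RMRP, 64.6% of RPPH1 and 66.7% of the TERC transcript. In the predicted fold of lowest energy the share of paired bases ran from 59.7% in RMRP to 69.3% in RN7SL2 over the 9 RNAs. Its relation to the nuclease difference was not tested. The GENCODE transcript of TERC is 541 nt long and the RefSeq gene 451 nt, the length of the locus. These predictions take no account of bound protein.

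Sites kept to the limits of the RNAs. In the 1000 nt beyond each limit on the same strand, protected bases came from sites that crossed the limit, except for 4 bases beside TERC in ssRNase list 3, and no list held more than 7 of them on either side of a locus. On the 5′ side of RMRP they numbered 2 to 7 in all lists. On the opposite strand of the flanks, sites were listed only beside RN7SL1, in the dsRNase lists, with 34, 8 and 73 bases.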

How the data were processed

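Protected sites came from 6 replicate lists (3 ssRNase, 3 dsRNase) that the authors made from 12 libraries. Per the submitters' processing notes, cutadapt 0.9.5 and TopHat2 2.0.9 were used with hg19. The deposited lists name CSAR and a 5% false discovery rate. Per the labels' protocols, a duplex-specific nuclease step lowered abundant sequences in the libraries. Its effect was not measured here. The score is the authors' deposited value per site and was used for ranks within a list. Positions were read as 1-based and inclusive.

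Protected bases are the union of sites inside a locus. ssRNase and dsRNase lists were compared by a two-sided exact permutation test (smallest p 0.1), with Benjamini-Hochberg adjustment over all 300 nt tiles with a site and the loci. Values are means and SD over lists. The members and lists were chosen with earlier results of these data known. All members of the rule are named. Alternatives were a share of the list, numbers of sites, score cuts, 50% overlap, 600 nt tiles, left-out lists and a replicate block. No pairing by replicate number was seen in the lists: over 62013 tiles the same-numbered correlations of deviations were -0.003, -0.056 and -0.034. Those of differently numbered lists ran from -0.06 to 0.063. These values cannot show whether same-numbered lists came from the same culture. Code was tested on simulated data. Merged lists were not used here. The sequences of RN7SL1 and RN7SL2 are not reported here. The genes of their protein partners were not analysed here, since no hg19 annotation was used. Folds came from RNAfold 2.7.2 and alignments from Biopython 1.88, in Python 3.11.15.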

Additional observations from a re-analysis of the deposited data

How the results depend on the processing

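In protected bases, the direction at RMRP, RPPH1, RN7SK, RN7SL1, RN7SL2 and the vault window was the same with the score cuts, with 50% of the site inside and without any one list; the exact permutation p cannot fall below 0.1, so it says nothing of stability. Per 1000000 site bases the ssRNase minus dsRNase difference reversed at RN7SK (-83.3), RN7SL1 (-99.4) and RN7SL2 (-130). By number of sites it reversed at RMRP (0.333 sites), RPPH1 (1.33) and TERC (0.667). At TERC the difference of -7.0 bases ran from -53.7 to 18.3 when 1 list was left out, and was 14.3 and 18.3 without ssRNase lists 2 and 3.

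With a replicate block the differences were the same by construction, with exact sign-flip permutation p = 0.25, the smallest that 3 pairs allow, at RMRP (-150), RPPH1 (-157), RN7SK (168), RN7SL1 (114) and RN7SL2 (73.7), and p = 1.0 at TERC. It changed no call.

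Of 7 loci, 6 had a site in all 6 lists, and 5 with the better-scoring 50% of sites or with equal numbers of sites per list. Tiles higher with ssRNase in all lists numbered 37703, against 19382 with the better-scoring 50% and 7510 with equal numbers of sites, and 38693 to 99415 when 1 list was left out (99415 without ssRNase list 2, the shortest of its group). Those higher with dsRNase numbered 1070, against 5601 per 1000000 site bases, 672 by number of sites, 3140 with equal numbers, and 1107 to 2084 when 1 list was left out (2084 without ssRNase list 1, 1808 and 1801 without dsRNase lists 1 and 3). Leaving out a list can only raise these counts, since fewer lists must then lie in order. The cause of the other changes was not tested.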
